A study of Arabidopsis thaliana with 8 samples.

Results

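Loss of the chromatin remodeller DDM1 was examined in plants that already lacked RDR6. The comparison set the 2 ddm1-2 rdr6-15 double mutant arrays against the 2 rdr6-15 arrays, which are 4 of the 8 arrays of the series, over all 22746 probe sets that are not manufacturer's controls. The samples were inflorescences of Arabidopsis thaliana carrying flowers of stages 9 to 12. Plants were grown in long days, each RNA came from pooled tissue (n = 3 in the labels), and 6 ug of it was hybridised to an Affymetrix ATH1 array, on which each probe set reports 1 or more transcripts. The groups used are ddm1-2 rdr6-15, rdr6-15, ddm1-2 and Col-0, the wild type, each with 2 biological replicates. Both groups of the main comparison carry rdr6-15 and differ in the ddm1-2 allele. Ages, the number of generations since ddm1-2 was introduced and the origin of each replicate beyond the word biological were not stated in the labels, so p-values measure the spread between these arrays.

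DDM1 is a nucleosome remodeller that lets DNA methyltransferases reach heterochromatin, and plants without it lose methylation from transposons, many of which become transcribed. RDR6, an RNA-dependent RNA polymerase, copies cleaved transcripts into double-stranded RNA, from which secondary small interfering RNAs are cut. In ddm1 mutants such small RNAs also arise from transcribed transposons. The comparison shows which transcripts rise after the loss of DDM1 where this RDR6 route is absent.

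In the RDR6-deficient background the response was made up mainly of loci annotated as pseudogenes, a class that in the reference annotation holds transposon genes along with ordinary pseudogenes. Their probe sets were bright in ddm1-2 rdr6-15 inflorescences and mostly at the level of controls without a target in rdr6-15 inflorescences. In all, 37 probe sets (0.163% of those tested) were higher in ddm1-2 rdr6-15, and 0 (0.0%) were lower, by limma with a Benjamini-Hochberg adjusted p under 0.05. At an unadjusted p under 0.05, 1102 probe sets passed in either direction (4.84%). Of the 37, 29 were annotated pseudogenes, which is 2.93% of the 989 tested. A further 5 were protein-coding genes, 0.0402% of the 12443 tested, and 3 had no listed gene.

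Levels are given on the log2 scale of the deposited values. A level without target was taken from 27 control probe sets for Bacillus transcripts, whose means over the arrays were 2.27 to 2.76 apart from 1 at 3.56. Control level here means a group mean no higher than 3.56, and a rise from control level is given as a lower limit. Of the 37, 33 were at control level in rdr6-15 and 0 in ddm1-2 rdr6-15. Over all 22746 probe sets these counts were 10237 and 10477. Being called higher favours a signal above control level in ddm1-2 rdr6-15.

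The replicates of rdr6-15 were unlike each other, so both are shown throughout. Replicate 1 correlated with the other arrays across probe sets at 0.852 to 0.879, and the other 7 arrays correlated with each other at 0.944 to 0.988. Since probe sets are not replicates, these values only describe the arrays. On replicate 1, 66 probe sets lay over 3 log2 units above every other array and 112 over 3 below, with 0 of either kind on any other array. Median signals per array were alike, at 3.73 to 3.81, and the median gap between replicates was 0.18 in ddm1-2 rdr6-15 and 0.38 in rdr6-15. Counts without rdr6-15 replicate 1 are therefore given beside those of all arrays. They leave replicate 2 as the lone rdr6-15 array, assumed to vary like arrays of the other groups.

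The largest rises belonged to pseudogenes whose probe sets match several related sequences (suffix _s_at or _x_at, called shared), so their signal cannot be assigned to 1 locus. AT2G13160 had 11.98 and 11.87 in ddm1-2 rdr6-15, against 3.34 and 2.66 in rdr6-15 replicates 1 and 2. It was at least 330-fold higher (limma adjusted p = 2.12e-05). The values of AT2G12300 were 11.42 and 11.36 in ddm1-2 rdr6-15, against 2.83 and 2.90 in rdr6-15, at least 228-fold higher. Both loci were bright in each double mutant replicate and could not be told from background in either rdr6-15 replicate.

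AT2G10640 had 11.37 and 11.47 in ddm1-2 rdr6-15, against 3.21 and 2.84 in rdr6-15, at least 233-fold higher. AT2G12240 had 11.35 and 11.33, against 3.60 and 2.86 in rdr6-15, at least 217-fold higher. AT2G04770 had 10.25 and 10.26, against 2.81 and 2.64 in rdr6-15, at least 104-fold higher. For these loci too both rdr6-15 arrays were low, and the difference from each of them was over 7 log2 units. AT3G30396 was measurable in rdr6-15, with 11.65 and 11.75 in ddm1-2 rdr6-15 against 4.12 and 4.15 in rdr6-15, a difference of 7.57 (SE 0.20, limma adjusted p = 1.85e-05).

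Pseudogenes whose probe sets are their own rose as well. Of the 29, 10 were of this kind and 19 were shared. AT1G34530 had 7.89 and 8.82 in ddm1-2 rdr6-15, against 2.21 and 2.34 in rdr6-15, at least 27.8-fold higher. AT4G04590 had 7.77 and 7.96, against 2.66 and 2.55 in rdr6-15, at least 19.8-fold higher. AT3G47320 had 7.89 and 8.18, against 3.37 and 3.21 in rdr6-15, at least 22.3-fold higher. All lay far above both rdr6-15 arrays. The smallest measured difference of the class was that of AT2G10070, with 4.11 and 4.18 in ddm1-2 rdr6-15, against 2.75 and 2.48 in rdr6-15, at least 1.5-fold higher (limma adjusted p = 0.0487).

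The remaining pseudogenes that rose were, in falling order of measured difference, AT1G33130, AT2G13870, AT2G12980, AT3G31955, AT3G30670, AT1G36190, AT1G42410, AT1G44060, AT4G05640, AT4G28960, AT2G04000, AT3G47330, AT2G06180, AT2G12250, AT5G27180, AT1G53810, AT1G43230, AT4G22040 and AT2G23480. Their measured differences lay between those of AT2G04770 and AT2G10070. AT2G12980 showed the widest gap between double mutant replicates among the 37, with 8.57 and 9.96, against 2.27 and 2.14 in rdr6-15. AT2G12250 was above control level on both rdr6-15 arrays, with 7.58 and 7.68 in ddm1-2 rdr6-15, against 4.84 and 3.75 in rdr6-15, and it was still separate on all arrays.

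Of the 5 coding genes that rose, 4 were at control level in rdr6-15. AT1G58025 had 10.59 and 10.58 in ddm1-2 rdr6-15, against 2.97 and 2.76 in rdr6-15, at least 130-fold higher (limma adjusted p = 1.23e-05). AT1G36240 had 8.17 and 9.41, against 2.78 and 2.88 in rdr6-15, at least 37.6-fold higher. AT5G26270 had 8.58 and 8.97, against 3.52 and 3.00 in rdr6-15, at least 37.2-fold higher. These are annotated as protein coding, and the annotation used here gives them no name. AT2G15560 had 8.29 and 8.62, against 2.70 and 2.31 in rdr6-15, at least 29.9-fold higher. AT1G59930, whose probe set is shared, had 8.43 and 8.77, against 4.12 and 3.81 in rdr6-15, a difference of 4.63 (SE 0.25, limma adjusted p = 0.000488).

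Across the 37, values were 4.11 to 11.98 in ddm1-2 rdr6-15 and 1.87 to 4.84 in rdr6-15, and the arrays of the groups overlapped for none of them. Non-overlap alone is common, since 13.5% of all probe sets had both double mutant arrays above both rdr6-15 arrays and 15.1% had both below. A gap of at least 1 log2 unit was less frequent, with 73 probe sets above (0.321%) and 8 below (0.0352%), and the smallest gap among the 37 was 1.36. Differences between measured values, which are no limits for the 33 at control level in rdr6-15, ran from 1.53 to 8.92 with a median of 5.08, and 26 of the 37 differed by at least 4 units. Replicates differed by a median of 0.19 in ddm1-2 rdr6-15 and 0.28 in rdr6-15. In ddm1-2 rdr6-15 replicate 2 was the higher one for 29 of the 37, and in rdr6-15 replicate 1 was for 30.

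**Figure D1:**
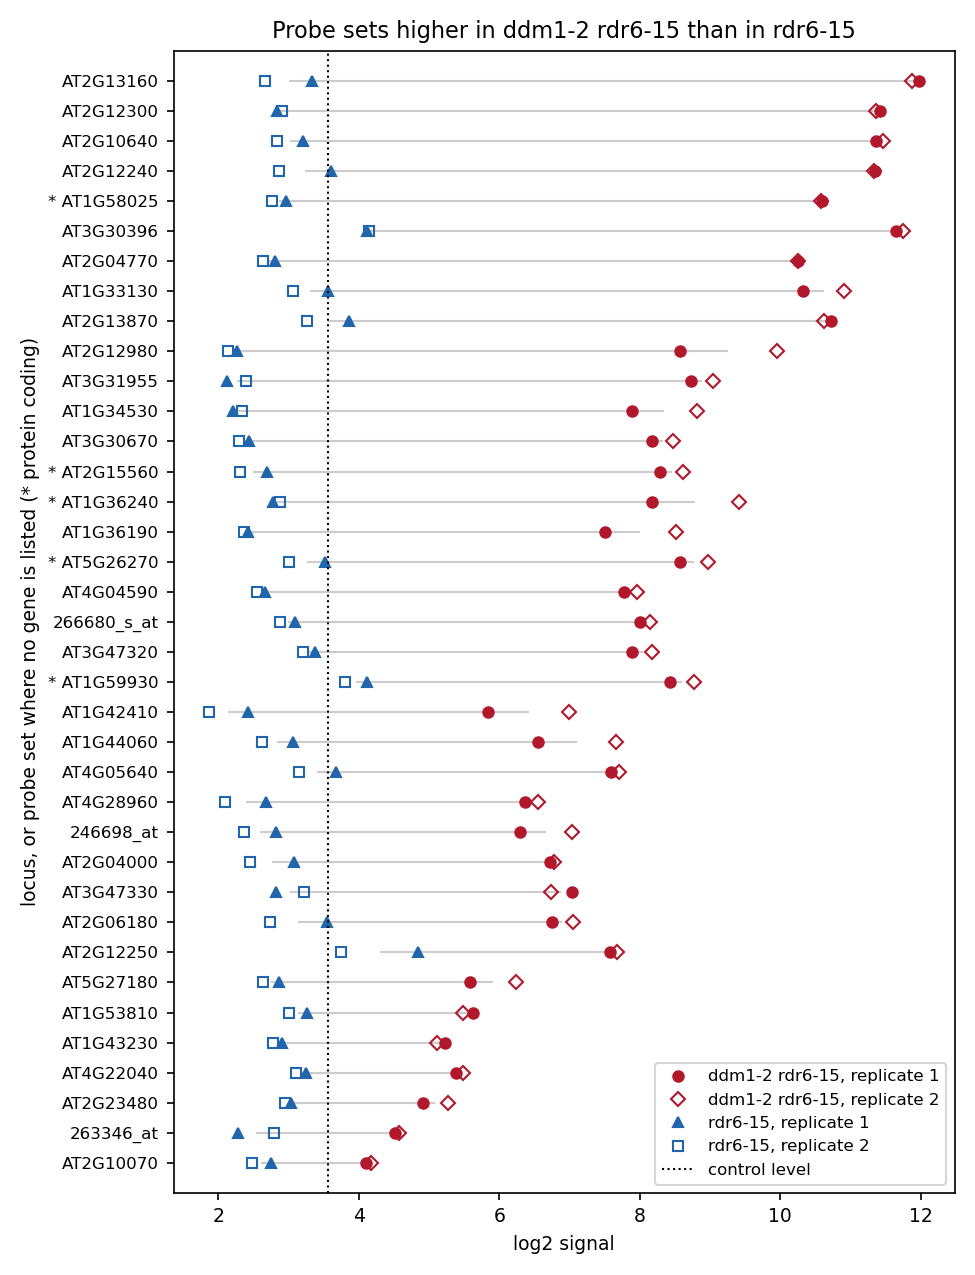
Log2 signal (horizontal axis) of the 37 probe sets higher in ddm1-2 rdr6-15 (red, replicates 1 and 2) than in rdr6-15 (blue, replicates 1 and 2), ordered by difference, with grey lines joining the group means and a dotted line at the control level of 3.56. In every row both red marks lie right of both blue marks, by at least 1.36 log2 units.

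Some of the loci that rose are neighbours in the order of the reference annotation. AT2G12240 and AT2G12250 are adjacent, AT2G12300 follows with 4 annotated loci between, and AT3G47320 and AT3G47330 are adjacent. AT1G36190 and the coding gene AT1G36240 have 5 annotated loci between them. Neighbours were sought only among loci that rose, so a rise in both members of a pair follows from that choice. AT2G12250, which was above control level in rdr6-15, rose by 3.34 log2 units. For AT2G12240 and AT2G12300 the rise was at least 217-fold and 228-fold. The probe sets of AT2G12240, AT2G12250, AT2G12300, AT3G47330 and AT1G36190 are shared, so their signal cannot be assigned to these loci alone. How often tested loci lie this close was not examined. By the chromosome in the locus name, the share of tested pseudogenes that rose was 3.63% on chromosome 1, 4.03% on 2, 2.42% on 3, 2.3% on 4 and 0.855% on 5. Of the 29 pseudogenes that rose, 19 have shared probe sets, which may report transcripts of other chromosomes or a few transcripts many times over. Differences between these shares were not tested. The counts behind these shares are 7, 12, 5, 4 and 1, and without rdr6-15 replicate 1 they were 12, 18, 9, 6 and 3.

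Most annotated pseudogenes gave no readable signal. Of the 989, 733 were at or below 3.56 on every one of the 8 arrays, so a transcript that stayed at control level could not be seen. The class had a median difference of 0.01, beside -0.01 over all probe sets, and a 95th percentile of 1.74, beside 0.67. By measured size alone, 72 pseudogenes were at least 1 log2 unit higher and 1 was at least 1 lower. Over all probe sets these counts were 522 and 470. Without rdr6-15 replicate 1 they were 94 and 0 among pseudogenes and 133 and 273 over all, so the balance over all probe sets turned with that array.

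Each rdr6-15 array can be taken alone as the comparator. With replicate 2 alone, 64 probe sets were higher (0.281%) and 11 lower (0.0484%). With replicate 1 alone, 2569 were higher (11.3%) and 2358 lower (10.4%). All of the 37 were among the 64, and 24 of the 37 were called under every omission of a single array. The 27 added by leaving out replicate 1 comprised 19 pseudogenes, 4 coding genes and 4 others with no listed gene. Almost all of these probe sets had rdr6-15 replicate 1 above replicate 2. Being called only without replicate 1 favours that order, and its share over all probe sets was not counted.

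The 27 had values of 3.43 to 8.39 in ddm1-2 rdr6-15 and a median measured difference of 2.35 from rdr6-15 replicate 2. AT1G43840 had 6.77 and 8.39 in ddm1-2 rdr6-15, against 2.59 and 2.68 in rdr6-15. The limma adjusted p was 0.0528 on all arrays and 0.0200 without rdr6-15 replicate 1. Its groups lay far apart, and its double mutant replicates showed the widest gap among the 27. AT2G14140 had 5.88 and 6.36, against 3.44 and 2.13 in rdr6-15 (adjusted p 0.0682 on all arrays). AT1G37160 had 5.53 and 5.21, against 4.21 and 3.02 in rdr6-15 (adjusted p 0.55 on all arrays).

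The 4 coding genes among these 27 were AT5G01080, AT5G03090, AT5G15690 and AT5G24480. AT5G01080 had 4.70 and 4.95 in ddm1-2 rdr6-15, against 2.90 and 2.48 in rdr6-15 (adjusted p 0.0523 on all arrays). AT5G03090 had 5.57 and 5.52, against 4.27 and 3.04 in rdr6-15 (adjusted p 0.512 on all arrays). Just short of the threshold on all arrays were also AT3G33080, at least 2.67-fold higher with an adjusted p of 0.0528, and AT2G10000, at least 3.75-fold higher with an adjusted p of 0.0567. A probe set with no listed gene stood out after its values were seen, with 4.17 and 4.28 in ddm1-2 rdr6-15 and at most 3.10 on the other 6 arrays (adjusted p 0.0646).

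Where the test asks for a gap of at least 1 log2 unit in place of an adjusted p, 12 coding genes were above. Beside the 5 called and AT5G01080, AT5G03090 and AT5G15690, these were AT5G41660, AT5G15360, SQN and AT2G34810, chosen after their values were seen. SQN, a cyclophilin needed for full activity of the small RNA effector ARGONAUTE1, had 4.59 and 5.90 in ddm1-2 rdr6-15, against 3.28 and 2.82 in rdr6-15 (limma adjusted p = 0.352). AT5G41660 had 5.10 and 6.73, against 2.94 and 2.91 in rdr6-15 (adjusted p = 0.248). AT2G34810 had 7.87 and 7.90, against 3.31 and 6.70 in rdr6-15 (adjusted p = 0.811), so that most of its difference lay with rdr6-15 replicate 1.

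**Figure D2:**
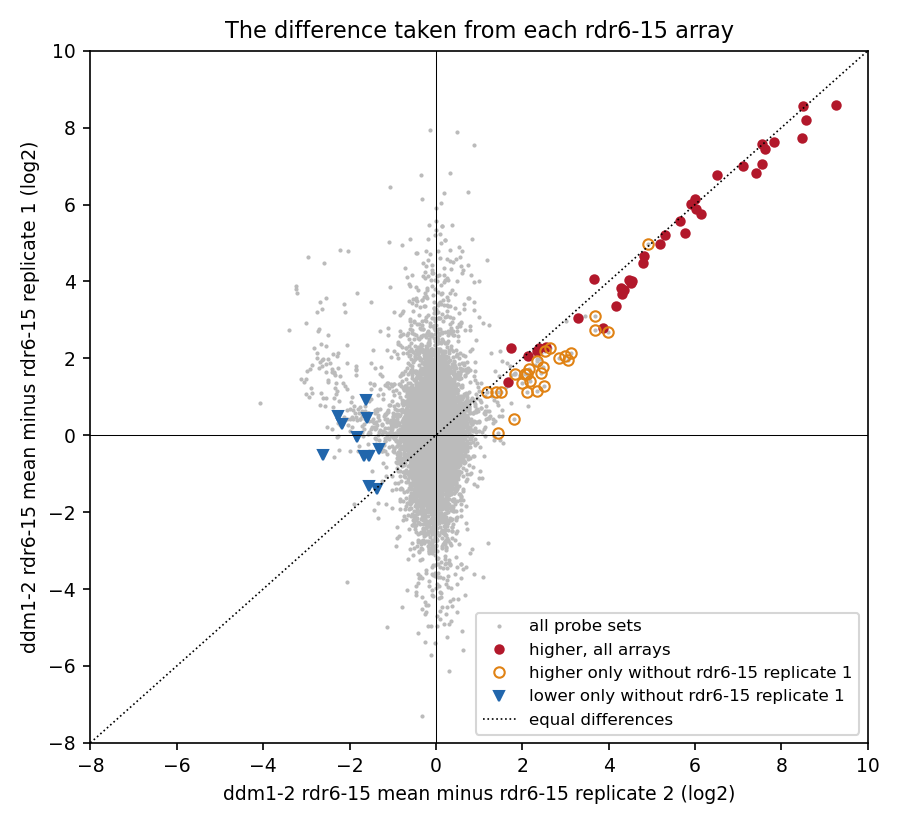
Difference between the ddm1-2 rdr6-15 mean and each rdr6-15 array, replicate 2 on the horizontal and replicate 1 on the vertical axis, both in log2 units, for all 22746 probe sets (grey). The 37 higher probe sets (red) lie near the diagonal of equal differences, while the grey cloud is stretched along the axis of replicate 1.

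Lower transcripts depended on the choice of the rdr6-15 array. Lower calls made against replicate 2 alone favour probe sets that are high on that array. Annotated pseudogenes are 989 of the 22746 probe sets tested, so a short list of calls can hold 0 of them whatever the class does. With replicate 1 left out, 11 probe sets were lower in ddm1-2 rdr6-15, 3 of them coding genes and 8 with no listed gene, and 0 were pseudogenes. On 9 of the 11, rdr6-15 replicate 2 was the highest of all 8 arrays, which it was on 2104 of the 22746 probe sets. For 6 of the 11 both rdr6-15 arrays were above both double mutant arrays. AT2G46630 had 3.87 and 3.65 in ddm1-2 rdr6-15, against 5.16 and 5.13 in rdr6-15, a difference of -1.38 with an adjusted p of 0.0567 on all arrays. Its rdr6-15 replicates lay within 0.03 of each other and above the ddm1-2 and Col-0 means of 4.17 and 4.15.

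AT5G48210 had 3.58 and 3.28 in ddm1-2 rdr6-15, against 2.99 and 5.03 in rdr6-15. The double mutant values lay between those of the rdr6-15 arrays. Without replicate 1 its measured difference was -1.60, and without replicate 2 it was 0.45. AT5G16100 had 2.76 and 2.83, against 3.14 and 4.10 in rdr6-15, and was at control level in the double mutant. With a gap of at least 1 unit in place of a p, the lower side held AT4G16980, AT2G46630, psbI, LCR68, AT4G23470 and 3 with no listed gene. AT4G16980 had 4.15 and 3.58 in ddm1-2 rdr6-15, against 5.65 and 5.76 in rdr6-15 (limma adjusted p = 0.400). LCR68, a small cysteine-rich peptide gene, had 6.65 and 6.43, against 7.75 and 7.78 in rdr6-15 (adjusted p = 0.639).

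**Figure D3:**
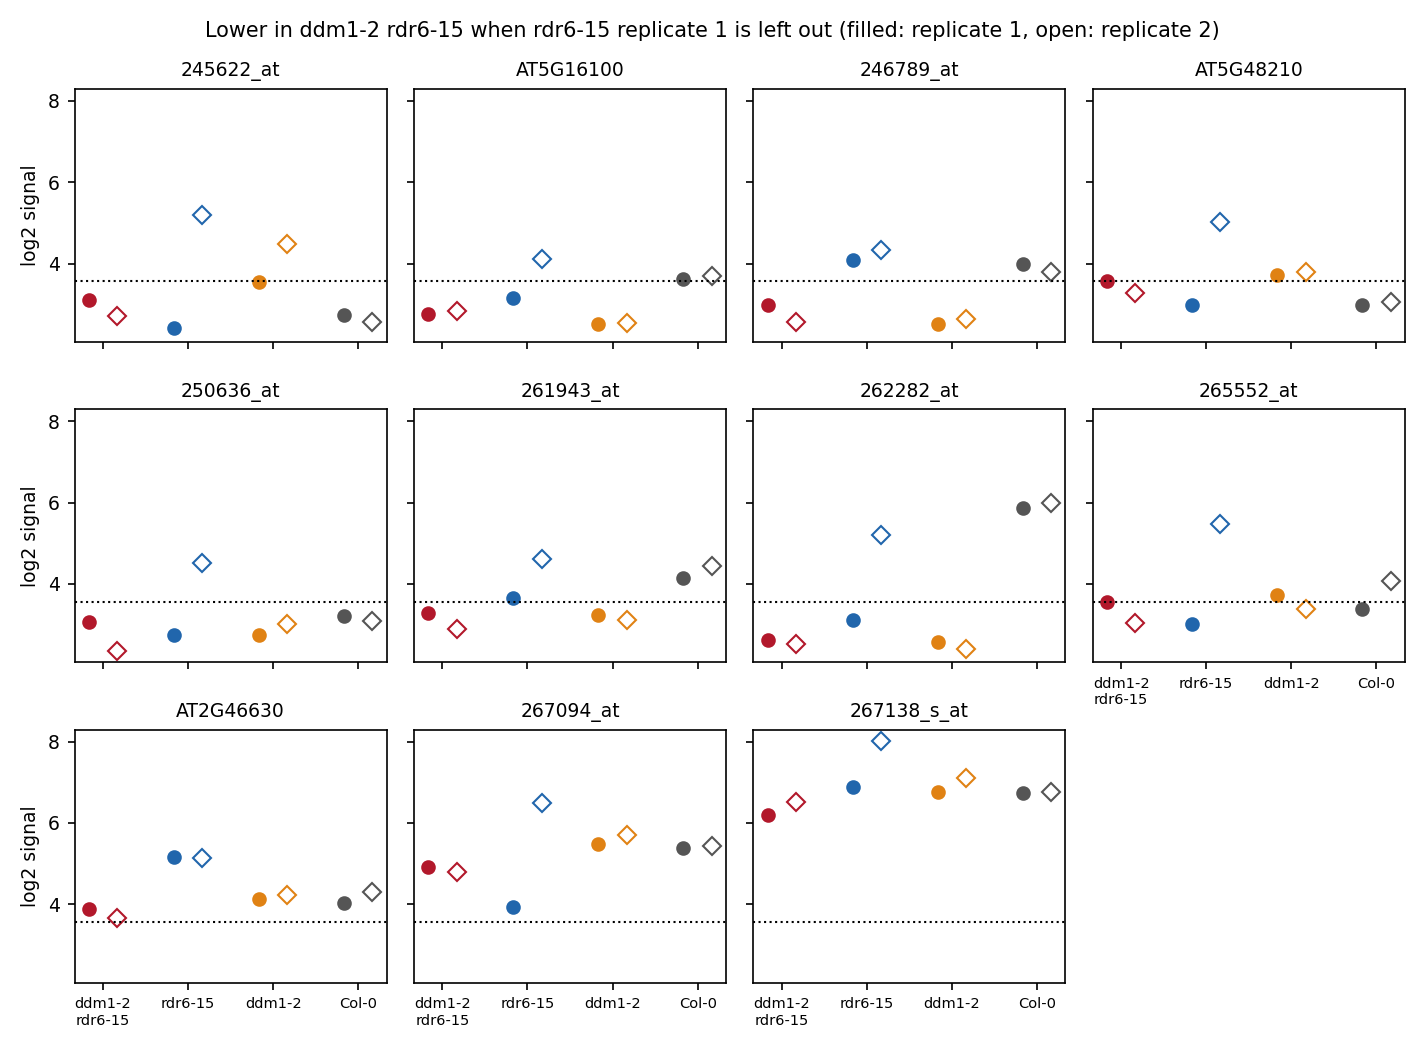
Log2 signal of the 11 probe sets lower in ddm1-2 rdr6-15 when rdr6-15 replicate 1 is left out, on each array of the 4 genotypes (filled marks replicate 1, open marks replicate 2, dotted line at the control level of 3.56). For 9 of the 11 the open rdr6-15 mark is the highest of the 8.

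On rdr6-15 replicate 1 the probe sets that stood apart included well-known genes. BCAT4, an aminotransferase of aliphatic glucosinolate synthesis, had 3.24 and 3.21 in ddm1-2 rdr6-15, against 8.15 and 3.04 in rdr6-15. THI2.1, a jasmonate-inducible antimicrobial thionin, had 10.03 and 10.48, against 2.70 and 9.37 in rdr6-15. AT2G20870 had 12.03 and 11.19, against 3.68 and 11.75 in rdr6-15. For none of these did replicate 2 stand apart from the double mutant in the way replicate 1 did, and the limma adjusted p was 0.811 for each. Other genes highest on replicate 1 by the naming rule were AT3G05730, AT1G76960, AT4G34950, rps14, AT3G22240, AT1G19960, AT3G16670, AT3G19030 and AT1G35710. Those lowest were AT5G33370, AT1G66850, AT5G22430, AT3G28500, AT5G44630, AT2G28790, CYP71B31 and AT1G14890.

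Control probe sets moved on the same array. The control for 5S ribosomal RNA read 4.79 on rdr6-15 replicate 1 and 2.66 to 3.10 on the other 7 arrays. The actin control read 6.30 at the 5′ end and 9.28 at the 3′ end on that array, and 8.24 to 8.72 and 10.36 to 10.81 on the others. Their part in the results was not tested. For all 37 rises both double mutant arrays lay above each rdr6-15 array, by at least 1.36 log2 units. The 37 were called in a fit that held both rdr6-15 arrays, which favours such a gap.

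Marker lists for cells and tissues that an inflorescence can hold showed the same split within groups. Fewer cells of a type and less RNA per cell cannot be told apart in such bulk tissue. The list of late pollen and pollen tube genes, which act in the mature male gametophyte, matched 14 of 39 loci. Their median signal was 4.25 and 2.90 in ddm1-2 rdr6-15, against 2.93 and 5.52 in rdr6-15, and 0 of 14 were called. The replicates of each genotype lay farther apart than the genotypes' means. For 13 of the 14, rdr6-15 replicate 2 was the highest of the 4 arrays, and for 14 of 14 double mutant replicate 1 was above replicate 2. The share of all probe sets with either order was not counted. In ddm1-2 the list's medians were 4.29 and 3.41, and in Col-0 they were 6.29 and 6.84, above that of rdr6-15 replicate 2. The list's median difference was -0.48 on all arrays and -1.93 without rdr6-15 replicate 1. AT3G07820 on this list had 8.33 and 4.0 in ddm1-2 rdr6-15, against 2.47 and 9.39 in rdr6-15. AT59, a pectate lyase, had 4.31 and 3.05, against 2.94 and 5.44 in rdr6-15.

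Green tissue genes were high on rdr6-15 replicate 1. The 69 plastid-encoded probe sets had medians of 5.75 and 5.40 in ddm1-2 rdr6-15, against 7.43 and 5.63 in rdr6-15, and 60 of the 69 were highest of all 8 arrays on rdr6-15 replicate 1, which was the highest on 6813 of the 22746 probe sets. Their median difference was -0.74 on all arrays and -0.16 without that array, with 0 called. The 4 nuclear photosynthesis genes matched, RCA, LHCB4.1, LHCB4.2 and PSAE-1, had a median difference of -0.46 on all arrays and -0.14 without it, with 0 called. RCA, which activates the carbon-fixing enzyme, had 11.76 and 11.98, against 12.38 and 12.05 in rdr6-15. These lists differed more between the rdr6-15 replicates than between replicate 2 and the double mutant, and their part in the lower calls was not tested. Mitochondrion-encoded genes, 23 probe sets, had a median difference of -0.10, with 0 called, and 15 of the 23 were highest on rdr6-15 replicate 1.

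**Figure D4:**
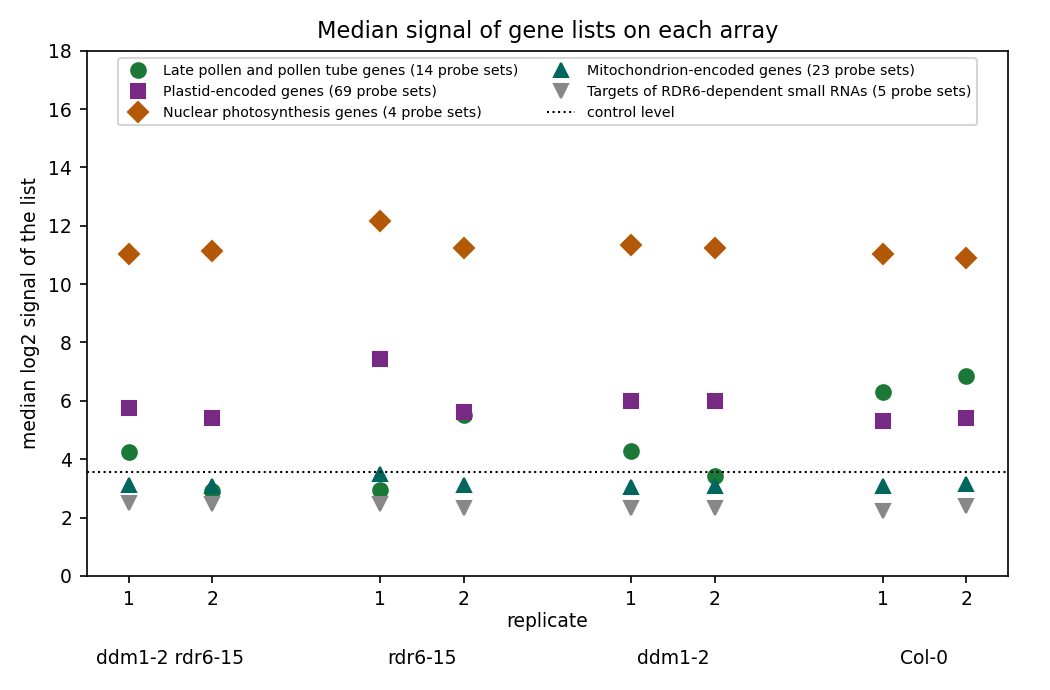
Median log2 signal of 5 gene lists on each of the 8 arrays, grouped by genotype with replicates 1 and 2, and the control level of 3.56 as a dotted line. In rdr6-15 replicate 1 has the higher plastid-encoded median (7.43 beside 5.63) and the lower late pollen median (2.93 beside 5.52).

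Genes that act in silencing were followed as lists, of which the platform's annotation named few members. DDM1 and RDR6 themselves had 0 named probe sets, so the mutated genes could not be checked against the labels. Of 26 loci of chromatin silencing, 3 were matched by 5 probe sets, with a median difference of -0.03 and 0 called. They were DME, a glycosylase that removes methylated cytosine, and the loci AT1G06760 and AT2G30620, the first of which had 7.92 and 8.03 in ddm1-2 rdr6-15, against 7.10 and 8.12 in rdr6-15. Of 29 loci of the small RNA machinery, 2 were matched. AGO7, the ARGONAUTE that triggers trans-acting RNA from a non-coding precursor, had 3.61 and 4.21 in ddm1-2 rdr6-15, against 3.71 and 3.76 in rdr6-15. SE, a cofactor of microRNA processing, had 5.26 and 5.48, against 5.17 and 5.41 in rdr6-15. For these 3 genes the groups differed by no more than the replicates of a genotype did.

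Of 14 transposons and genes known to be silenced by methylation, 5 were matched and 1 was called higher. The pseudogene AT2G23480 had 4.91 and 5.27 in ddm1-2 rdr6-15, against 3.03 and 2.95 in rdr6-15, at least 2.9-fold higher (limma adjusted p = 0.00740). AT4G08680 had 3.77 and 3.09, against 2.86 and 2.57 in rdr6-15 (adjusted p = 0.811). Its double mutant replicates differed by about as much as the groups. AT2G12210 and AT2G23500 were at control level in both genotypes. The list's median difference was 0.01.

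Targets of RDR6-dependent small RNAs, genes whose transcripts such RNAs cleave, matched 5 of 23 loci, all 5 at control level in both genotypes, with a median difference of 0.16 and 0 called. Floral identity and meristem genes matched 4 of 25 loci, SPT, UFO, CLV3 and NGA1, with a median difference of 0.19 and 0 called. NGA1, a regulator of style growth, had 4.31 and 4.31 in ddm1-2 rdr6-15, against 4.01 and 4.02 in rdr6-15, and the other 3 were at or below 3.68 on these arrays. The 7 organ identity genes fixed as markers of the inflorescence had 0 named probe sets, so the tissue label could not be checked with them. Tapetum genes matched 3 of 22 loci with a median of 0.05. Glucosinolate genes matched 3 of 17, and BCAT4 above was the one that stood apart. Heat, cold and water stress genes matched 2 of 7 with a median of 0.35, jasmonate genes 1 of 12, defence genes 1 of 10 and DNA damage genes 0 of 11. None of these lists had a member called.

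The rises in the RDR6-deficient background can be set beside those made by ddm1-2 where RDR6 is intact, which use none of the same arrays, although the spread was estimated from all 8 together. In ddm1-2 against Col-0, 92 probe sets were higher (0.404%) and 39 lower (0.171%), and 35 of the 37 were among the 92. The other 2, AT2G10070 and AT1G53810, had measured differences of 1.12 and 1.13 there. AT1G53810 had 5.63 and 5.48 in ddm1-2 rdr6-15, against 3.26 and 3.00 in rdr6-15. The test of the difference between the backgrounds is the interaction, the difference in rdr6-15 minus the difference in Col-0. It passed for 0 of the 37 and for 2 of all probe sets (0.00879%), with 1430 (6.29%) at an unadjusted p under 0.05.

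Interactions are given between measured values, also where a group is at control level. Those of the 37 ran from -2.25 to 1.30, and 21 were below 0. Their 95% confidence intervals had half-widths of 0.50 to 1.57 (median 0.83), so interactions within those widths could not be told from 0, and 5 intervals left out 0 without adjustment. The lowest was that of AT4G05640, with means of 9.81 in ddm1-2 and 3.32 in Col-0. It had 7.59 and 7.71 in ddm1-2 rdr6-15, against 3.68 and 3.15 in rdr6-15 (adjusted p of the interaction 0.253). AT3G47320 had an interaction of -1.74 (adjusted p 0.229) and its neighbour AT3G47330 one of -1.27 (adjusted p 0.597). AT2G13160, AT2G12300 and AT2G12240 had values of -0.11, -0.10 and 0.01, with intervals of -0.98 to 0.76, -0.89 to 0.69 and -1.19 to 1.22.

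The other 57 of the 92 were not called in the RDR6-deficient background, 44 of them pseudogenes. Without rdr6-15 replicate 1, 18 of the 57 were called higher. On all arrays their median difference was 0.96, 51 were above 0, and 31 had both double mutant arrays above both rdr6-15 arrays. Of these 57, 17 had a difference of at least 4 in ddm1-2 against Col-0, a cut chosen after the values were seen. All 17 were annotated pseudogenes, 15 of them with shared probe sets that may report a few transcripts many times over. These 15 had medians of 5.43 and 3.65 in ddm1-2 rdr6-15 and 4.09 and 3.02 in rdr6-15, beside 8.82 and 8.95 in ddm1-2 and 3.29 and 2.97 in Col-0. Median signal in the double mutant lay over 3 units below that in ddm1-2. However, these 15 were picked as called in ddm1-2 against Col-0 and not called here. That choice favours a low double mutant signal and an interaction below 0. In all 15, replicate 1 was above replicate 2 both in the double mutant and in rdr6-15. The share of all probe sets with that order was not counted.

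AT2G15140 of this group had 4.25 and 2.75 in ddm1-2 rdr6-15, against 3.36 and 2.90 in rdr6-15. In ddm1-2 it had 8.61 and 8.85, against 2.69 and 2.85 in Col-0. The interaction was -5.59 (SE 0.64, adjusted p = 0.170) on all arrays and -5.36 (adjusted p = 0.0222) without rdr6-15 replicate 1. AT3G47260 had 5.73 and 4.40 in ddm1-2 rdr6-15, against 4.14 and 3.71 in rdr6-15, and 9.57 and 9.88 in ddm1-2, against 3.62 and 3.52 in Col-0. Its interaction was -5.02 (adjusted p = 0.170) on all arrays and -4.80 (adjusted p = 0.0236) without rdr6-15 replicate 1.

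Over the 15 shared probe sets, adjusted p-values of the interaction were 0.170 to 0.510 on all arrays, and 7 of the 15 passed without rdr6-15 replicate 1. In that fit the interaction passed for 41 probe sets (0.18%). Of these, 15 were annotated pseudogenes, and all 15 had values below 0, from -5.36 to -1.97. Among the 12 coding genes 5 were below 0. AT3G30610, AT1G37160, AT4G03790 and AT2G10880 were among the pseudogenes. All of these pseudogenes except AT3G30610 have shared probe sets, which may report a few transcripts many times over. All were also called higher in ddm1-2 against Col-0, which favours an interaction below 0. AT4G03790 had 3.78 and 3.49 in ddm1-2 rdr6-15, against 3.58 and 2.21 in rdr6-15, and 7.78 and 7.75 in ddm1-2, against 2.64 and 2.42 in Col-0. The coding gene AT4G29200 had 2.38 and 2.60 in ddm1-2 rdr6-15, against 2.96 and 2.57 in rdr6-15, and 5.92 and 7.18 in ddm1-2, against 2.96 and 2.51 in Col-0.

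The 2 probe sets whose interaction passed on all arrays moved in unlike ways. The pseudogene AT3G30610, which has its own probe set, was at control level in the RDR6-deficient background, with 2.42 and 2.54 in ddm1-2 rdr6-15, against 2.55 and 2.62 in rdr6-15, beside a mean of 6.13 in ddm1-2 and 2.47 in Col-0. QQS, an orphan gene linked to starch content and prone to heritable changes in methylation, was measurable in all groups. It had 5.83 and 5.87 in ddm1-2 rdr6-15, against 7.08 and 6.79 in rdr6-15, a difference of -1.08 (SE 0.22, limma adjusted p = 0.457), beside a mean of 7.37 in ddm1-2 and 4.03 in Col-0. Its value in the double mutant lay below rdr6-15 and ddm1-2 and above Col-0. Neither interaction passed with any 1 array of the other 3 genotypes left out. Over all alternatives the adjusted p was 4.96e-05 to 0.357 for AT3G30610 and 4.67e-05 to 0.374 for QQS, lowest without rdr6-15 replicate 2.

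Among the genes called in ddm1-2 against Col-0 that differed least in the RDR6-deficient background were the pseudogenes AT3G15310, AT3G31540, AT3G29210 and AT3G33066, all at control level in rdr6-15 and ddm1-2 rdr6-15. AT3G33066 had 3.13 and 3.13 in ddm1-2 rdr6-15, against 3.15 and 2.78 in rdr6-15, beside a mean of 5.83 in ddm1-2 and 2.69 in Col-0. The coding genes AT3G49210, AT3G61930, AT2G46300 and AT1G62760, lower in ddm1-2 than in Col-0, were at control level in both RDR6-deficient genotypes. AT3G61930 had 3.62 and 3.23 in ddm1-2 rdr6-15, against 3.25 and 3.55 in rdr6-15, beside a mean of 3.78 in ddm1-2 and 5.60 in Col-0. The peptidase-like gene scpl29 had 6.77 and 6.91 in ddm1-2 rdr6-15, against 6.63 and 6.75 in rdr6-15.

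**Figure D5:**
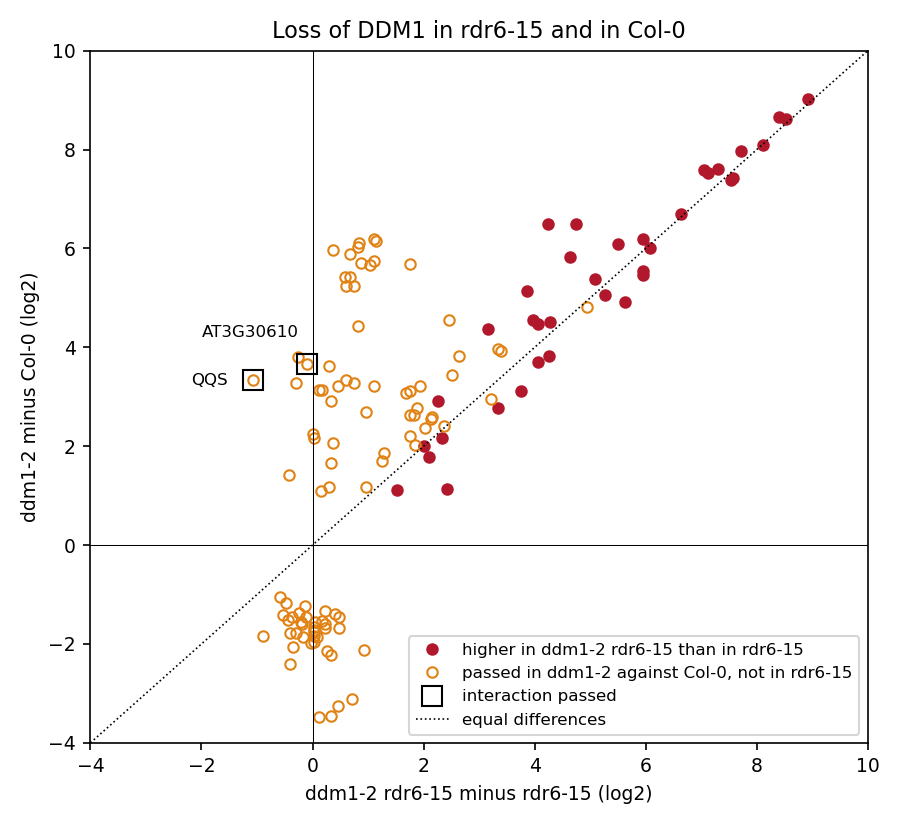
Difference between ddm1-2 rdr6-15 and rdr6-15 (horizontal axis) and between ddm1-2 and Col-0 (vertical axis), in log2 units, for probe sets called in either comparison on all arrays. The 37 called in the RDR6-deficient background (red) spread along the diagonal, the 15 shared pseudogene probe sets described above lie left of it at 4.44 to 6.20 on the vertical axis, and squares mark QQS and AT3G30610.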

How the data were processed

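Signals were measured on 8 Affymetrix ATH1 arrays, 2 per genotype. Deposited signals are on a log2 scale, 1 per probe set, and were made by the authors with RMA, per the submitters' processing notes, in a version not given in the sources used here. Of 22810 probe sets, 64 controls were left out. The platform's annotation named 1 gene for 13513, several for 503 and none for 8730. The TAIR10.1 gene table, matched by gene identifier, gave the locus type for 13436.

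The model held 1 mean for each genotype over the 8 arrays and was fitted by lmFit and eBayes of limma 3.58.1 under R 4.3.3, with 4 residual and 2.82 prior degrees of freedom. Two-sided p-values were adjusted over 22746 probe sets (Benjamini-Hochberg), with a threshold of 0.05. The number of arrays limits the precision. The fit was tried on simulated data with independent noise and no array that stood apart, unlike rdr6-15 replicate 1. It recovered 12 of 50 probe sets raised by 1 log2 unit, 40 of 50 raised by 2 and 50 of 50 raised by 4.

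Genes named are all called ones with 1 listed gene, up to 15 per side called without rdr6-15 replicate 1, the 5 uncalled with the smallest p, 10 per side farthest on that array, list members, interaction calls, and 10 called in ddm1-2 against Col-0 with the smallest difference here. Others were chosen after their values were seen, as stated beside them. The comparison, the gene lists and the annotated pseudogene class were chosen with earlier results of these data known, and list medians and counts are descriptions. Same-numbered replicates of the groups compared did not deviate together (r = -0.06). Over all pairs of genotypes r was -0.06 to 0.422, highest for ddm1-2 rdr6-15 with ddm1-2, and not above 0.1 for every pair, so numbers were not used as pairs. The interaction draws on all genotypes, that pair included. With a replicate block 0 probe sets passed it, in place of 2. Alternatives tried were a replicate block, only the 4 arrays compared, median centring, quantile normalization, array weights, filters on dim and on shared probe sets, a variance with trend and robust fitting, stricter thresholds, and the omission of each array. Genome positions served only to put loci in order along each chromosome, for the loci between neighbours. Sequences were not used here.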

Additional observations from a re-analysis of the deposited data

Results flagged for a closer look

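QQS and AT3G30610 differed between backgrounds by the interaction test, with values of -4.43 (limma adjusted p = 0.0277) and -3.76 (adjusted p = 0.0249). Neither passed with the replicate block (adjusted p 0.137 for QQS and 0.114 for AT3G30610) or with any 1 array of ddm1-2 rdr6-15, ddm1-2 or Col-0 left out. In QQS both double mutant arrays were below both rdr6-15 arrays and both ddm1-2 arrays were above both Col-0 arrays.

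The control probe set for 5S ribosomal RNA, which no comparison uses, read 4.79 on rdr6-15 replicate 1, above the 2.66 to 3.10 of the other 7 arrays. The cause was not tested.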

How the results depend on the processing

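The count of 37 probe sets higher in ddm1-2 rdr6-15 was 17 when only the 4 arrays compared were fitted and 11 with shared probe sets left out, where fewer were tested. It was 28 to 51 under the replicate block (29), quantile normalization (43), median centring (40), dim probe sets left out (42), a trended and robust variance (51), array weights (30), an adjusted p under 0.01 (29), a difference of at least 1 unit (37) and a test against 1 unit (28). No probe set was lower under any of these. Array weights were equal, at 0.298, for both rdr6-15 arrays. With 1 mean for 2 arrays, weights within a genotype must be equal, so this setting could not weigh replicate 1 below replicate 2. Leaving out 1 array gave 26 to 2569 higher and 0 to 2358 lower, a total of 26 to 4927; without rdr6-15 replicate 1 the counts were 64, 11 and 75. A fit of the double mutant arrays and rdr6-15 replicate 2 alone, added after the data were seen, gave 47 higher and 2 lower. The 2 interaction calls became 0 with the replicate block, with dim probe sets left out, at 0.01 and against 1 unit, 4 after quantile normalization or with a trended and robust variance, and 5 with array weights. Leaving out 1 array gave 0 to 3810, with 41 without rdr6-15 replicate 1, 3810 without replicate 2 and 0 without any other. AT5G48210 changed sign, with 0.45 without rdr6-15 replicate 2 and -1.60 without replicate 1. Of the 34 called probe sets with 1 gene, 16 were called under each of the 20 settings that tested them, and 0 changed sign; the filters on shared and on dim probe sets left 20 and 1 of the 34 untested. Without rdr6-15 replicate 1 the median was -1.93 for late pollen genes and 0.88 for the 1 jasmonate gene, THI2.1, beside -0.48 and 4.22 on all arrays, and the tapetum (-0.27), silenced (-0.07), mitochondrion-encoded (0.04), glucosinolate (0.19) and defence (0.18) medians changed sign. The silenced genes had 0.51 and -0.63 without dim or shared probe sets. The causes were not tested. Signal at control level limits what can be seen for most pseudogenes.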
